A study of Mus musculus with 4 samples.

Results

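The Egr transcription factor genes *Egr1*, *Egr2*, *Egr3* and *Egr4* and the corepressor genes *Nab1* and *Nab2* were described in the olfactory bulbs of *Unc80* knock-in mice. The 6 genes were chosen by symbol from the 15818 genes of the deposited table, with earlier results of these data in view, so the difference between the genotypes is given for them as a description, with no p-value, and supports nothing. All 6 were found, each in 1 row of the table. RNA from whole olfactory bulbs of male mice aged 2 to 5 months was sequenced as 4 libraries. The 2 libraries labelled unedited came from *Unc80* S/S mice, in which the edited serine codon AGC had been changed to TCC, a serine codon that cannot be edited. The 2 libraries labelled edited came from *Unc80* G/G mice, in which the same codon had been changed to GGC, which encodes glycine, as full editing would. Both alleles were made with CRISPR/Cas9 in eggs of B6D2F1 origin, and the study describes samples pooled from 3 mice each and 6 per genotype, which does not settle whether each of these libraries was such a pool. Wild-type bulbs were not part of the comparison, so each genotype is set against the other and not against normal editing. The genotypes are written S/S and G/G from here on, and paired values give S/S first. The sources used here do not say whether the animals had met an odor before collection.

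Egr proteins are zinc finger transcription factors that bind GC-rich DNA. In neurons, synaptic activity switches their genes on within minutes through the ERK kinases, the ternary complex factors that act with SRF at CArG boxes, and CREB at cAMP response elements. Nab1 and Nab2 bind Egr1, Egr2 and Egr3 and repress their targets, Nab2 by bringing in the CHD4 helicase of the NuRD complex. No such binding is taken here for Egr4. Egr proteins in turn activate *Nab2*, which closes a negative feedback loop. In the olfactory bulb, Egr1 is used as a marker of neurons that have been active.

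The start sites of *Egr4* and *Egr2* are shown first, because SRF and CREB, named above, act at the start of Egr genes. RefSeq promoter windows (GRCm38.p6) were held for 4 of the 6 genes, *Egr2*, *Egr4*, *Nab1* and *Nab2*. The start sites of *Egr1* and *Egr3* could therefore not be compared. Of the 5 windows of *Egr2*, the one at the start of its first-numbered GENCODE transcript was taken. The 250 bases before the start are printed 5′ to 3′ on the strand of the gene. Capitals mark the CArG box (CC, then 6 bases of A or T, then GG) and the core of the cAMP response element (TGACG on either strand, so that it reads CGTCA on the other).
*Egr2*, chr10:67537619-67537868, plus strand: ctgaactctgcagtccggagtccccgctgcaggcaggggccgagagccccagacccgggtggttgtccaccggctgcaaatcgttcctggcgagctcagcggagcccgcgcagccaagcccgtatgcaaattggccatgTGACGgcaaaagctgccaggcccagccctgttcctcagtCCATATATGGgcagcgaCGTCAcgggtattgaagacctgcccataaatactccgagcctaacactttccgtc
*Egr4*, chr6:85513590-85513839, minus strand: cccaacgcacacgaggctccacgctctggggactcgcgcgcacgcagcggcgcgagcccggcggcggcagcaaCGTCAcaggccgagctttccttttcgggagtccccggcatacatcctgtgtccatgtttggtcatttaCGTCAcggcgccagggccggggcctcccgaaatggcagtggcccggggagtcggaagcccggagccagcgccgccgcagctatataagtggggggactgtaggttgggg
Upstream of *Egr2*, the CArG box CCATATATGG began 72 bases before the start, between cAMP response element cores that began 111 and 55 bases before it. Upstream of *Egr4* such cores began 177 and 109 bases before the start, and no CArG box matched within these 250 bases. A match to the core was held by 17.8% of all 32851 promoter windows of this length, the full element TGACGTCA by 1.55% and a CArG box by 1.47%. The full element matched in none of the 4 windows.

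The window of *Nab1* held matches to the Egr site itself, in the form GCGTGGGCG on either strand. This form was found in 0.536% of all windows. The matches lay 141 and 109 bases before the RefSeq start, on opposite strands, within the first exon of a longer annotated transcript. They are printed with the bases around them, the site in capitals, on the strand of the gene.
*Nab1*, chr1:52500571-52500599, minus strand: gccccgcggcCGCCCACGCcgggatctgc
*Nab1*, chr1:52500539-52500567, minus strand: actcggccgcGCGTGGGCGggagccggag
A related form, GCGGGGGCG, matched once more in the *Nab1* window, 38 bases before the start, and in 2.57% of all windows. A cAMP response element core also matched in it, beginning 123 bases before the start. The 1 window of *Nab2*, the 250 bases before its RefSeq start at 127666703, held neither form, no CArG box and no cAMP response element core. The annotated gene reaches further upstream, to 127668568, and the bases before that start were not searched. A match describes letters of the reference and does not show that a factor binds there.

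By level, *Egr1* led the family and *Egr4* stood lowest. The authors' genotype means, in CPM (reads counted for a gene, scaled to a common library total), were, for *Egr1*, 202.9 CPM in S/S and 240.1 CPM in G/G bulbs. *Egr3* had 79.8 and 90.0 CPM, *Egr2* 11.1 and 13.96 CPM, and *Egr4* 3.91 and 6.31 CPM. These levels placed *Egr1* among the most abundant transcripts, with only 4.96% of genes at a higher mean, whereas 78.7% of genes had a higher mean than *Egr4*. Divided by the exon length of the coding transcripts (GENCODE M21), *Egr1* had 45.2 and 53.6 CPM per kb, *Egr3* 19.4 and 21.9, *Egr2* 3.27 and 4.11, and *Egr4* 1.82 and 2.94. *Egr1* thus held 64.9% of the summed Egr level per kb in either genotype. The order of *Egr1* and *Egr3* depended on the length taken for *Egr3*: with its short first-numbered transcript (1509 bases, beside 4104 over all its coding transcripts), *Egr3* reached 52.9 and 59.6 CPM per kb and stood above *Egr1*. The corepressors lay between, with 12.7 and 12.6 CPM per kb for *Nab1* and 11.4 and 12.6 CPM per kb for *Nab2*. The order of the Nab genes also depended on the scale. With the first-numbered transcripts as lengths, *Nab1* had 13.2 and 13.0 CPM per kb and *Nab2* 13.0 and 14.4, while in CPM *Nab2* was below *Nab1* in both genotypes.

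**Figure D1:**
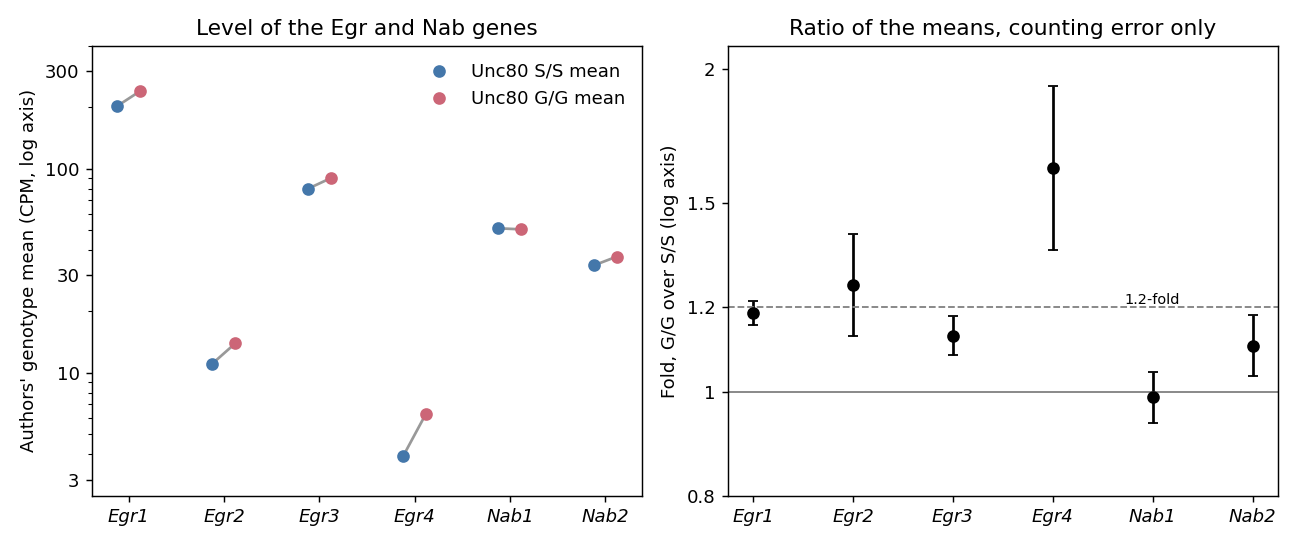
Authors' genotype means of the 6 genes in CPM on a log axis (left; blue, S/S; red, G/G; 2 libraries per genotype, no spread deposited) and their fold, G/G over S/S, on a log axis with the 95% interval from counting error alone (right). The 4 Egr genes and *Nab2* lie above 1, *Egr2* and *Egr4* lie above the dashed line at 1.2-fold, and *Nab1* lies at 0.988.

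All 4 Egr genes had the higher mean in G/G bulbs, by 1.62-fold for *Egr4*, 1.26-fold for *Egr2*, 1.18-fold for *Egr1* and 1.13-fold for *Egr3*. In this whole-tissue RNA, more cells of a type and more RNA per cell cannot be told apart. *Egr2* and *Egr4*, 2 of the 6 genes, passed 1.2-fold in this direction, which 3.38% of all genes did and 0.624% of those with a mean of at least 5 CPM. *Egr4* also passed 1.5-fold, as did 0.329% of all genes, but it fell just short of that fold when 1 CPM was added to both means (log2 ratio 0.576). None of the 6 was lower by 1.2-fold, as 2.36% of all genes and 0.448% of those with at least 5 CPM were, nor by 1.5-fold, as 0.19% of all genes were. In either direction these values are those of the contrast that brought the genes together, so the counts are not evidence about them. Measured in CPM instead of as a fold, the order was another: of the summed gain of the Egr genes, 70.7% was that of *Egr1* (37.2 CPM), 19.4% that of *Egr3* (10.2 CPM), 5.42% that of *Egr2* (2.85 CPM) and 4.57% that of *Egr4* (2.41 CPM).

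*Egr4*, which in neurons activates the chloride transporter gene *Slc12a5*, was the member whose reads could be followed library by library. For 2218 genes (14.02% of the table), among them *Egr4* alone of the 6, the genotype means could be written as whole reads of the separate libraries in exactly 1 way. The S/S libraries held 104 and 98 reads of *Egr4*, or 3.93 CPM (95% interval from exact Poisson counting, 3.21 to 4.76) and 3.88 CPM (3.15 to 4.73). The G/G libraries held 155 and 161 reads, or 6.12 CPM (5.19 to 7.16) and 6.51 CPM (5.54 to 7.59). Both G/G libraries lay above both S/S libraries, by 1.56-fold to 1.68-fold, and the libraries of a genotype differed by 0.02 (S/S) and 0.09 (G/G) on the log2 scale. The means were 3.91 ± 0.0315 CPM and 6.31 ± 0.278 CPM (SD, n = 2 each). Of all 2218 genes with such reads, 17.7% had both G/G libraries above both S/S libraries and 14.8% had both below. A quasi-likelihood fit in edgeR over these genes gave *Egr4* a log2 fold change of 0.69 with a standard error of 0.14, and *Egr4* was not among the genes it called. Its reads come from the means by which the gene was chosen, so this fit is no independent check. Intervals from counts cover counting error only.

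**Figure D2:**
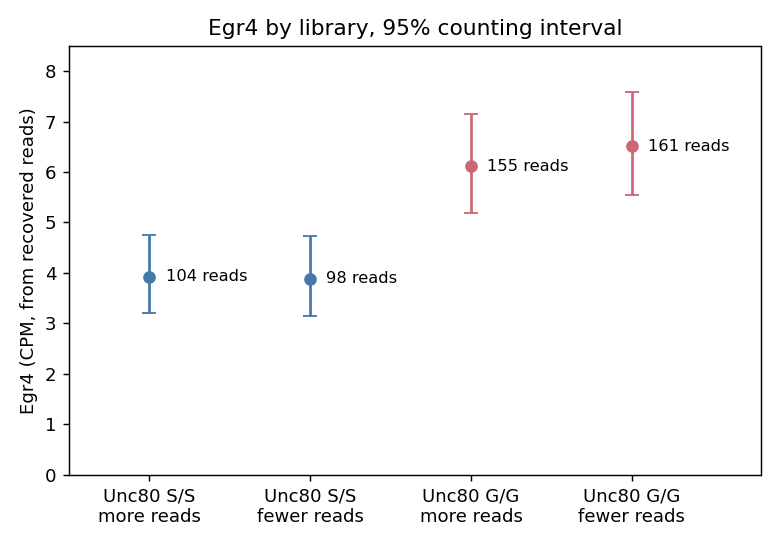
*Egr4* in each of the 4 libraries, in CPM from the recovered reads, with exact 95% Poisson intervals (blue, S/S; red, G/G; within a genotype the library with more counted reads comes first). The S/S libraries lie at 3.93 and 3.88 CPM and the G/G libraries at 6.12 and 6.51 CPM.

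For the other 5 genes no split into whole reads was found, so the spread between their own libraries is unknown. Their depth was greater: the means correspond to about 10493 and 12026 counted reads for *Egr1* and to about 574 and 699 for *Egr2*, summed over the libraries of a genotype. Counting error alone gave the fold of *Egr1* an interval of 1.15 to 1.21, that of *Egr2* 1.13 to 1.40 and that of *Egr3* 1.08 to 1.18. The spread between libraries of a genotype was read from genes of a similar level, within 2-fold of the member, that had recovered reads. Near *Egr1* (98 genes), the log2 difference between libraries of a genotype had a median size of 0.04 and a 95th percentile of 0.13, beside a log2 ratio of 0.24 between the genotype means of *Egr1*. Near *Egr2* (599 genes), these were 0.10 and 0.32, beside 0.33 for *Egr2*. Near *Egr3* (251 genes), they were 0.05 and 0.15, beside 0.17 for *Egr3*. These values are set side by side as a scale and not as a test, since the members were chosen by their ratios and a difference between means of 2 libraries varies less than one between single libraries. A gene's own spread can be larger than that of its level: *Ier2*, an immediate-early gene with recovered reads, differed by 0.68 between the S/S libraries and by 0.42 between the G/G libraries.

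The genes of a similar level with a ratio as high as that of an Egr gene included other immediate-early genes. How few they were follows in part from the choice of the members by their ratios and is given as a description. Of 1791 genes within 2-fold of the level of *Egr1*, 2 (0.112%) had a ratio as high or higher. They were *Nr4a1*, an activity-induced orphan nuclear receptor, at 109.6 and 147.5 CPM, and *Fosl2*, a member of the AP-1 factors, at 104.6 and 136.2 CPM in S/S and G/G bulbs. Of 3355 genes near the level of *Egr4*, 5 (0.149%) did, namely 1700016P03Rik, Fam205a2, *Htr2c*, *Atf3* and Gm15319, of which *Atf3* is a stress- and activity-induced partner of AP-1. Of 4543 genes near *Egr2*, 13 (0.286%) did, led by *Junb*, and of 4154 near *Egr3*, 19 (0.457%) did, among them *Nr4a1*, *Fos*, *Fosl2* and *Jun*. Most of these genes were not in the list of other immediate-early transcription factors given below. That list held both genes near *Egr1*, but 1 of 5 near *Egr4*, 1 of 13 near *Egr2* and 4 of 19 near *Egr3*. It was drawn up for transcription factors, so absence from it does not tell whether a gene is activity-induced. *Arc*, a rapidly induced gene that is not a transcription factor, was among those near *Egr3*. The genes named here, other than those of the lists below, were singled out after their values were seen.

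**Figure D3:**
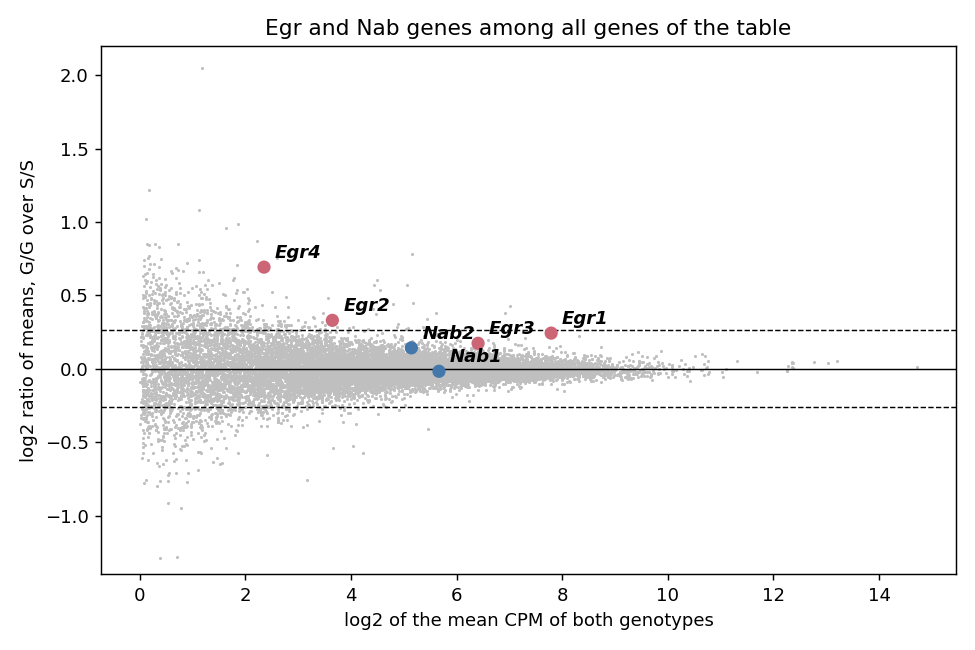
log2 ratio of the genotype means, G/G over S/S, against the log2 of the mean CPM, for every gene of the table (gray) with the Egr genes in red and the Nab genes in blue; dashed lines mark 1.2-fold in either direction. Ratios of all genes spread out toward low means, and the members lie where their chosen ratios put them, the Egr genes at 0.17 to 0.69 and *Nab1* at -0.02.

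*Egr1*, the family member most used as a record of neuronal activity, stood 37.2 CPM higher in G/G bulbs, with 3.94% of all genes at or above its ratio. *Egr2*, known for hindbrain segmentation and for the myelin program of Schwann cells, had 2.04% of all genes at or above its ratio. *Egr3*, needed in the mouse for muscle spindle development, had 6.88%, and *Egr4* had 0.164%. These shares follow from the ratios by which the members were chosen, so they are a description and no evidence. They are not matched for level, and ratios spread more widely at the low level of *Egr4*. The level of *Egr1* over that of *Egr3* in CPM was 2.54 in S/S and 2.67 in G/G bulbs.

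The corepressors lay closer to 1 than any Egr gene did. *Nab1* had 51.1 CPM for S/S and 50.5 CPM for G/G bulbs, a fold of 0.988 with a counting interval of 0.936 to 1.04, and 56.3% of all genes had a ratio at or above it. *Nab2*, the corepressor that Egr proteins induce, had 33.6 and 37.1 CPM, a fold of 1.104 with a counting interval of 1.03 to 1.18. At or above this ratio were 9.14% of all genes and 2.41% of the 5403 genes of a similar level. Among 450 genes near its level, differences between libraries of a genotype had a 95th percentile of 0.23, beside a log2 ratio of 0.14 for *Nab2*. The summed Egr level, with *Egr4* included, was 2.89 times the summed Nab level per kb in S/S and 3.28 times in G/G bulbs. In CPM, *Nab1* over *Nab2* was 1.52 and 1.36.

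In GENCODE M21 (GRCm38), *Egr1* (ENSMUSG00000038418.7) lies on chromosome 18 at 34859823 to 34864984. *Egr2* (ENSMUSG00000037868.15) lies on chromosome 10 at 67535475 to 67542188, *Egr3* (ENSMUSG00000033730.4) on chromosome 14 at 70077203 to 70082614, and *Egr4* (ENSMUSG00000071341.4) on chromosome 6 at 85511121 to 85513589. *Nab1* (ENSMUSG00000002881.14) lies on chromosome 1 at 52457294 to 52500679 and *Nab2* (ENSMUSG00000025402.12) on chromosome 10 at 127660918 to 127668568, so no pair of members are neighbors. Reads of *Nab2* may be shared with genes on the other strand. Of its exon bases, 35.7% lie opposite exons of the antisense gene Gm16229, 5.13% opposite *Nemp1* and 1.36% (40 bases) opposite *Stat6*, which encodes a signal transducer of cytokine receptors and ends tail to tail with *Nab2*. *Stat6* had 13.7 and 15.2 CPM, a fold of 1.11, and *Nemp1* had 9.99 and 10.1 CPM. The sources used here do not say whether the counting used strand. The exons of the other 5 genes overlapped no other annotated gene. Between family members, the longest identical stretch in coding transcripts was 46 bases for the Nab genes and 44 bases for the Egr genes (*Egr2* with *Egr3*), below the read length of 75 bases.

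The pathway above the Egr genes differed little between the genotypes at the RNA level, as most genes did. Of 22 genes of the ERK cascade, SRF, the ternary complex factors and CREB, all 22 were measured and none differed by 1.2-fold. Of all genes with at least 5 CPM, 0.624% were higher and 0.448% lower by that fold, so this count is near the common share. The median log2 ratio of the list was 0.00, beside -0.01 over all genes. *Mapk3*, which encodes ERK1, had 121.4 CPM for S/S and 113.1 CPM for G/G bulbs. *Elk4*, a ternary complex factor, had 23.9 and 26.4 CPM, and *Rps6ka4*, an ERK-activated kinase, had 13.3 and 14.6 CPM. The kinases and factors of this list act through phosphorylation, which RNA levels do not measure.

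The NuRD genes, whose products act with Nab proteins, were likewise near even. None of 13 differed by 1.2-fold, beside 0.624% higher and 0.448% lower of all genes with at least 5 CPM. Their median log2 ratio was 0.01. *Mbd2*, a methyl-DNA binding subunit, had 37.7 and 40.3 CPM, *Rbbp7*, a histone chaperone, had 85.1 and 80.9 CPM, and *Gatad2a* had 33.6 and 31.6 CPM.

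Known Egr targets did not stand higher as a list. The target lists do not separate genes that Egr proteins raise from genes that they lower. Their counts therefore do not show whether the targets follow the Egr levels. Of 12 targets in neurons, 1 was higher and 1 lower by 1.2-fold, beside 3.38% and 2.36% of all genes. At any size, 5 of the 12 were higher, beside 47.2% of all genes. *Arc*, which encodes a synaptic protein and is itself rapidly induced, had 117.0 CPM for S/S and 134.9 CPM for G/G bulbs, a fold of 1.15. *Slc12a5*, the chloride transporter gene that Egr4 activates, had 394.7 and 372.0 CPM, a fold of 0.943, and *Gabra4*, a GABA-A receptor subunit gene that Egr3 activates, had 83.2 and 77.9 CPM. The 2 past 1.2-fold were low genes, named after their values were seen: *Ngfr*, the low-affinity neurotrophin receptor, at 3.12 and 3.77 CPM, and *Psmb9*, an immunoproteasome subunit, at 1.22 and 0.881 CPM. For *Ngfr* the recovered reads were 73 and 88 in S/S and 100 and 89 in G/G libraries, with an edgeR log2 fold change of 0.28 and a standard error of 0.18. Of 7 targets of Egr2 in myelin, 6 were measured and none differed by 1.2-fold, beside 3.38% higher and 2.36% lower of all genes. *Mbp*, myelin basic protein, had 1069 and 1090 CPM, *Mag* had 69.4 and 65.7 CPM, and the connexin gene *Gjb1* had 5.27 and 5.07 CPM.

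**Figure D4:**
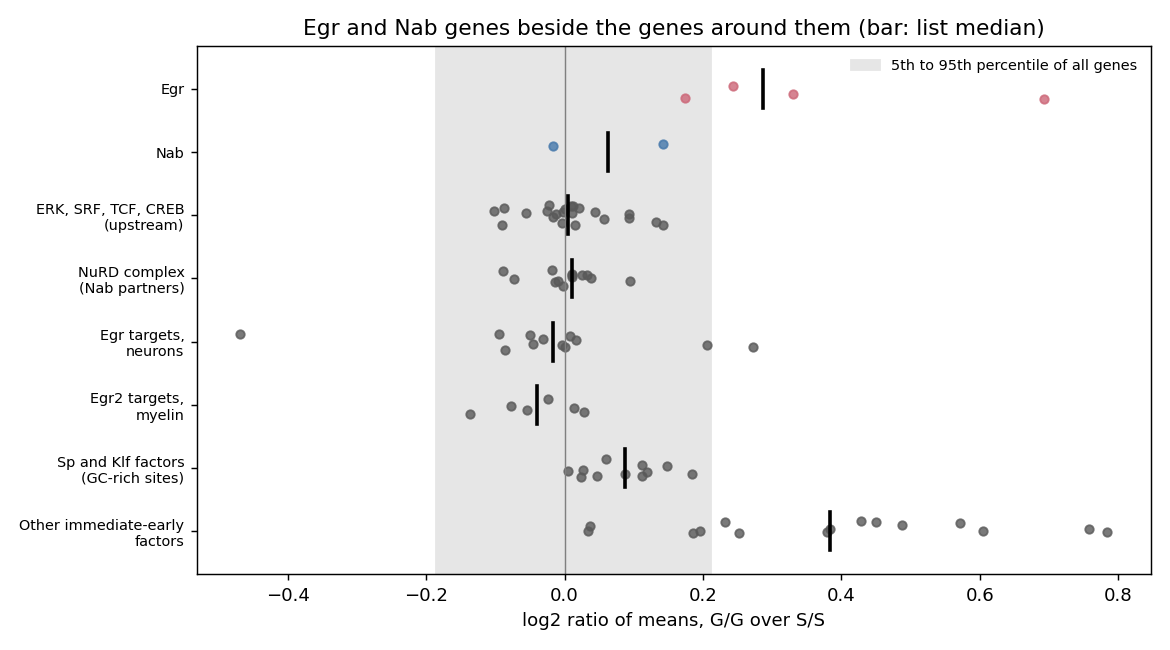
log2 ratio of the genotype means, G/G over S/S, for the Egr genes (red), the Nab genes (blue) and the genes of the lists described here (gray; 1 point per gene, bar at the median). The shaded band holds the 5th to 95th percentile of all genes (-0.19 to 0.21). The upstream, NuRD and target lists have medians near 0. The other immediate-early factors spread from near 0 to the right, and the Egr genes lie at 0.17 to 0.69.

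Other immediate-early transcription factors shared the direction of the Egr genes. All 15 measured of 16 had a higher mean in G/G bulbs, as 47.2% of all genes did. By 1.2-fold or more 9 of them were higher, beside 3.38% of all genes and 0.624% of those with at least 5 CPM. The median log2 ratio of the list was 0.38, beside 0.29 for the 4 Egr genes. The members of this list were chosen with earlier results known, and their values come from the same libraries. The shared direction is therefore not independent of that of the Egr genes. *Nr4a3* had 26.3 and 45.3 CPM, *Junb* 17.8 and 27.1 CPM, and *Atf3* 4.50 and 7.61 CPM. The list was not uniform: *Npas4*, which neurons induce through calcium entry and which is named after its values were seen, had 53.8 and 55.2 CPM, and it was 1 of 6 members that did not pass 1.2-fold. Of the 6 factors of this list with recovered reads, *Junb*, *Jun* and *Jund* had both G/G libraries above both S/S libraries, as *Egr4* had. Of all genes with such reads, 17.7% did. *Ier2*, *Ier5* and *Klf2* overlapped. Over all 2218 genes with recovered reads, edgeR called 2 (0.0902%) at a Benjamini-Hochberg adjusted p under 0.05, of which *Junb* was the 1 in these lists, and 116 had an unadjusted p under 0.05.

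By overall pattern, the genes nearest to each member were of several kinds. Nearness was taken over the ratio and the level, each divided by its SD over all genes, from the 2 genotype means. Nearest to *Egr4* were Gm15319 and *Atf3*, and nearest to *Egr2* were *Samsn1*, at 10.9 and 13.6 CPM, and *Tnfaip6*, at 9.70 and 12.1 CPM. Nearest to *Egr1* were *Cdr1os*, at 294.9 and 344.3 CPM, and *Pura*, at 145.1 and 167.7 CPM. The distances ran from 0.25 to 0.50 for the genes nearest to *Egr1* and *Egr4* and did not pass 0.17 for the other 4 members. Nearest to *Egr3* were *Map3k2* and *Htra1*, to *Nab1* *Shc2* and *Anxa6*, and to *Nab2* *Tgfbr1* and *Vwa5b2*.

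The libraries held 35465913 to 38051810 total reads, of which 24738078 to 26479648 were counted, as recovered from the means. *Unc80* had 660.9 CPM for S/S and 633.1 CPM for G/G bulbs, which does not check the labels, because the alleles differ in 1 codon. Defining genes of bulb neurons were present (11 of 11 markers, summed level 4474 CPM in S/S and 4445 CPM in G/G). Of lymphocytes, in which *Egr2* and *Egr3* also act, none of the marker genes was listed (0 of 5). Of the choroid plexus markers, 4 of 5 were listed. Of these, *Ttr*, *Tmem72* and *Clic6* (3 of 4) were higher by 1.2-fold or more in G/G bulbs, beside 3.38% of all genes. The 4 had means of 1.65 to 2.76 CPM, near the lowest mean of any gene (1.006 CPM), where ratios spread widely. *Ttr*, which encodes transthyretin, had 0.880 and 3.64 CPM, a fold of 4.14, *Tmem72* had 1.27 and 2.03 CPM, a fold of 1.60, *Clic6* had 2.37 and 3.15 CPM, and *Kl* had 2.74 and 2.43 CPM, with a summed level of 7.26 CPM for S/S and 11.3 CPM for G/G bulbs. Their part in the levels of the Egr genes was not tested. The markers of microglia (summed 153.4 and 152.8 CPM), neuroblasts (960.4 and 987.1 CPM) and striatum (43.6 and 43.6 CPM) summed to similar levels, and those of meninges and pericytes to 75.8 and 68.3 CPM. Those of sensory neuron axons summed to 232.9 and 250.5 CPM, with 4 of 5 higher in G/G bulbs. Sums can hide single markers: 1 each of striatum, endothelium, frontal cortex, and meninges and pericytes was lower by 1.2-fold or more, beside 2.36% of all genes.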

How the data were processed

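The authors sequenced 75 bp paired-end reads, trimmed and aligned them to GRCm38 (mm10) and compared the genotypes in Partek Flow; the sources used here name no aligner, annotation, normalization or test, and they differ on the kit (stranded total RNA or mRNA). The deposited files hold the total read count of each library and, for 15818 genes, the mean of each genotype in CPM, as the authors averaged it. Their p-values and fold changes were not used. The lowest mean over the genotypes is 1.006 CPM.

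The members and lists were chosen with earlier results of these data known. Ratios were taken as G/G divided by S/S, with *Unc80* left out of the genotype names. To obtain values per library, each mean was written as whole reads of 2 libraries times a fixed value per read, plus 0.0001 CPM, where a single solution was found and the chance of another was under 1e-04. Recovering reads was a step chosen after the data were examined, and the recovered libraries carry no replicate number. The reads were fitted with edgeR 4.0.16 (the library sizes behind the CPM), with DESeq2 1.42.0 as an alternative, in R 4.3.3, after tests on simulated data. p-values measure the spread between libraries, which may be pools of mice. Genes named in lists are the 3 of largest ratio with at least 5 CPM, and any past 1.5-fold, with the 2 genes nearest to each member, *Stat6* and *Unc80*; list genes with recovered reads, *Npas4*, *Ngfr* and *Psmb9* were named after their values were seen; of the markers, only those that bear on the members are named. Promoters are from RefSeq (GRCm38.p6) and exons from GENCODE M21. Some genes and 1 list are not reported here. The older symbols Mkl1 and Mkl2 were matched to Mrtfa and Mrtfb. Python 3.11.15, pandas 2.3.3 and matplotlib 3.10.9 were used.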

Additional observations from a re-analysis of the deposited data

How the results depend on the processing

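Of 89 values under other settings, 68 stayed within a set tolerance and 21 moved. For counts the tolerance was 1.5 times the reported count, and for list medians it came from the spread within the list. For *Egr4* it was the spread between libraries, and for the other 5 members counting error alone. No direction turned, but this was checked only for members other than *Nab1*. Adding 1 CPM cannot turn a direction, so this says little. With 1 CPM added, the log2 ratio of *Egr4* was 0.58 in place of 0.69; without 1 library in turn it was 0.65 to 0.74, while the other 5 members have no values per library. At a fold of 1.1, 1514 genes were higher and 1343 lower in G/G bulbs, at 1.5-fold 52 and 30, with 1 CPM added 221 and 131, and with a mean of at least 5 CPM 78 and 56, beside 534 and 374. At a fold of 1.1 the upstream list had 1 gene past the fold, and at 1.5-fold the other immediate-early factors had 3. The count for the targets in neurons was 0 at 1.5-fold, with 1 CPM added and among genes of at least 5 CPM. The edgeR count of 2 was 6 with TMM factors, 1 with DESeq2 (16 genes at an unadjusted p under 0.05) and 0 to 2 without 1 library; it fell to 0 when the S/S library of fewer counted reads was left out, and likewise without either G/G library. No paired analysis was possible because the recovered libraries carry no replicate number. Depth limits *Egr4* most, with 98 to 161 reads per library.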

Other observations

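Other factors that bind GC-rich sites like those of the Egr proteins differed little. Of 12 listed Sp, Klf and related zinc finger genes, 11 were measured. All 11 had the higher mean in G/G bulbs, as 47.2% of all genes did. None passed 1.2-fold, beside 0.624% higher and 0.448% lower of all genes with at least 5 CPM. The median log2 ratio was 0.09, beside -0.01 over all genes. *Klf10*, a TGF-beta-inducible repressor, had 18.9 CPM for S/S and 21.5 CPM for G/G bulbs, *Klf4*, a pluripotency factor, 6.45 and 7.15 CPM, and *Klf6* 27.9 and 30.3 CPM. For *Klf16* the recovered reads gave 32.7 and 33.8 CPM in S/S and 34.4 and 35.0 CPM in G/G libraries. Both G/G libraries lay above both S/S libraries, as in 17.7% of genes with such reads, and the log2 ratio of the means was 0.06.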
